A study of Mus musculus with 5 samples.

Results

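The 10 genes described here encode the angiopoietins, the vascular endothelial growth factors and their receptors. They were chosen by symbol from the 32285 genes counted in 5 single-cell RNA-seq libraries of mouse tissue. The ligands are *Angpt1*, *Angpt2*, *Vegfa*, *Vegfc* and *Vegfd*, and the receptors are *Tek*, *Tie1*, *Flt1*, *Kdr* and *Flt4*. All 10 were found in the gene list. The libraries fall into a penis and a limb group, with 3 from the penis of male pups at postnatal day 6 (P6), with the prepuce removed, and 1 from the forelimb and 1 from the hindlimb of male embryos at embryonic day 15 by the labels. The mice are C57BL/6N by the labels and C57BL/6J by the study methods, which do not give the embryos a single age. No transgene or treatment is named. The study methods give 3 pups from 2 litters and 6 embryos, but the labels do not say which animal gave which library. The methods describe both forelimbs and hindlimbs as taken from those 6 embryos, so the 2 limb libraries may come from the same animals and need not be independent. P-values therefore measure the spread between libraries. Tissue and age change together between penis and limb, and their effects cannot be told apart. Genes were followed in 15 cell types, each gated by marker genes that include none of the 10.

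Blood vessels are lined by endothelial cells and wrapped by pericytes and smooth muscle. VEGF-A, released by the surrounding tissue, acts through KDR (VEGFR2) on endothelial cells to drive sprouting, while FLT1 (VEGFR1) binds the same ligand and largely acts as a trap for it. VEGF-C and VEGF-D act through FLT4 (VEGFR3), best known for lymphatic vessels. Angiopoietin 1, made by cells around the vessel, activates TEK (TIE2) and steadies the vessel wall, angiopoietin 2 can oppose or replace it depending on context, and TIE1 is an orphan relative that modulates TEK.

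The genes are spread over the genome (GRCm38, GENCODE vM21). *Tek* lies at chr4:94739289-94874976 and *Tie1* on the same chromosome at chr4:118471191-118490061. *Kdr* and *Flt1* share a chromosome, at chr5:75932827-75978458 and chr5:147561604-147726011, and *Flt4* lies at chr11:49609263-49652739. Among the ligands, *Angpt2* and *Vegfc* share a chromosome, at chr8:18690263-18741562 and chr8:54077606-54187096. The others lie at chr15:42424723-42676977 for *Angpt1*, chr17:46016993-46032369 for *Vegfa* and chrX:164373378-164402650 for *Vegfd*.

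The bases before the start of 3 receptor genes are shown because the 5 receptors stood together in the comparison of endothelial cells with mesenchyme. The RefSeq promoter table used (GRCm38.p6) matched 8 of the 10 genes, not *Angpt1* and *Angpt2*. Capitals mark CCGGAA or CAGGAA on either strand, forms of the site bound by ETS factors, a family with known roles in endothelial genes. The *Tek* bases are chr4:94739039-94739288 (plus strand), those of *Kdr* chr5:75978459-75978705 (minus strand) and those of *Flt1* chr5:147726012-147726261 (minus strand), each read towards the gene.
Tek: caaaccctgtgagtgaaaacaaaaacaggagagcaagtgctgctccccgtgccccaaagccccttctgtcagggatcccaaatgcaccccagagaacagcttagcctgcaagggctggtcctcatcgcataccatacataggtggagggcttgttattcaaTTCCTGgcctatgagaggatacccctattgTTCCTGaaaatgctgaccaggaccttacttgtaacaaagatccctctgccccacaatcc
Kdr: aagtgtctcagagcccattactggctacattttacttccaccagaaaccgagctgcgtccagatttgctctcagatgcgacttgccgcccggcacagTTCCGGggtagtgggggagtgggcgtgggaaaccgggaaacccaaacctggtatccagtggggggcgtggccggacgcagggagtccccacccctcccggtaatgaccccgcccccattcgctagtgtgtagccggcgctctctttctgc
Flt1: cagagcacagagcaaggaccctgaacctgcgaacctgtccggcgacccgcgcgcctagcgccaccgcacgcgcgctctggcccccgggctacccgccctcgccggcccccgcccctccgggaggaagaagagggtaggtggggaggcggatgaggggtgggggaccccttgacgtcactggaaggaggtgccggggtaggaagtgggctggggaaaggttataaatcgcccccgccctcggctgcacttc
In the 250 bases before the RefSeq start, *Tek* held 2 such matches, *Tie1* and *Kdr* 1 each, and *Flt1* and *Flt4* held 0. The RefSeq start can differ from the GENCODE gene bounds given above: 212 of these bases for *Tie1*, all 250 for *Flt4* and 3 for *Kdr* lie inside the GENCODE gene and are not shown. Of all 32851 listed promoters, 35.1% held at least 1. None of the 5 receptor windows held GATAA on either strand, a form of the GATA factor site that 22.6% of all promoters held. A match describes these letters only.

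After filtering, 5708 to 7085 cells remained per penis library and 22057 and 20514 in the forelimb and hindlimb, with medians of 8792 to 9909 and of 5358 and 6057 UMIs (unique molecular identifiers, each marking 1 captured RNA molecule) per cell. Blood endothelial cells numbered 430, 421 and 347 in penis libraries 1 to 3 and 286 and 232 in forelimb and hindlimb, and mesenchyme cells 3541 to 10885 per library. Lymphatic endothelial cells numbered 10, 16 and 25 in penis and 42 and 37 in limb, so penis and limb were not compared in them. The gate itself sets the endothelial markers high in blood endothelial sums, at 4769 to 5725 CPM together (UMIs per 1000000 UMIs summed over the cells of a type in 1 library), against 74.8 to 157 CPM in mesenchyme. Mesenchyme markers together still measured 575 to 748 CPM in blood endothelial cells, against 4332 to 5646 CPM in mesenchyme. Between 17 and 35 cells per library showed 4 of the 8 endothelial markers, just under the gate of 5, and 12 to 48 showed exactly 5. Kept libraries shared 9 to 124 cell barcodes with each other.

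Each of the 5 receptors had its highest mean level in blood or lymphatic endothelial cells, in penis and in limb. *Tie1*, the orphan receptor, measured 277, 249.9 and 268 CPM in blood endothelial cells of penis libraries 1 to 3, and 159 and 147 CPM in those of forelimb and hindlimb. In mesenchyme it measured 1.10 to 1.50 CPM in penis and 0.447 and 0.390 CPM in limb. Every blood endothelial sum lay far above every mesenchyme sum.

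*Tek* measured 495, 515 and 582 CPM in blood endothelial cells of penis and 172 and 166 CPM in limb. In mesenchyme it was low but not at the floor, at 13.6 to 14.3 CPM in penis and 26.9 and 29.2 CPM in limb. *Flt1* measured 1129, 1038 and 1211 CPM in penis and 863 and 988 CPM in limb blood endothelial cells, against 8.54 to 21.3 CPM in mesenchyme. *Kdr*, the main signalling receptor for VEGF-A, gave the other order of tissues, at 315, 298 and 303 CPM in penis and 445 and 532 CPM in limb, against 3.74 to 8.24 CPM in mesenchyme. *Flt4*, the VEGF-C receptor, measured 46.0, 37.9 and 32.4 CPM in penis and 54.7 and 76.5 CPM in limb blood endothelial cells, against 2.28 to 4.12 CPM in mesenchyme. For each of the 5 receptors the lowest blood endothelial sum lay above the highest mesenchyme sum.

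**Figure D1:**
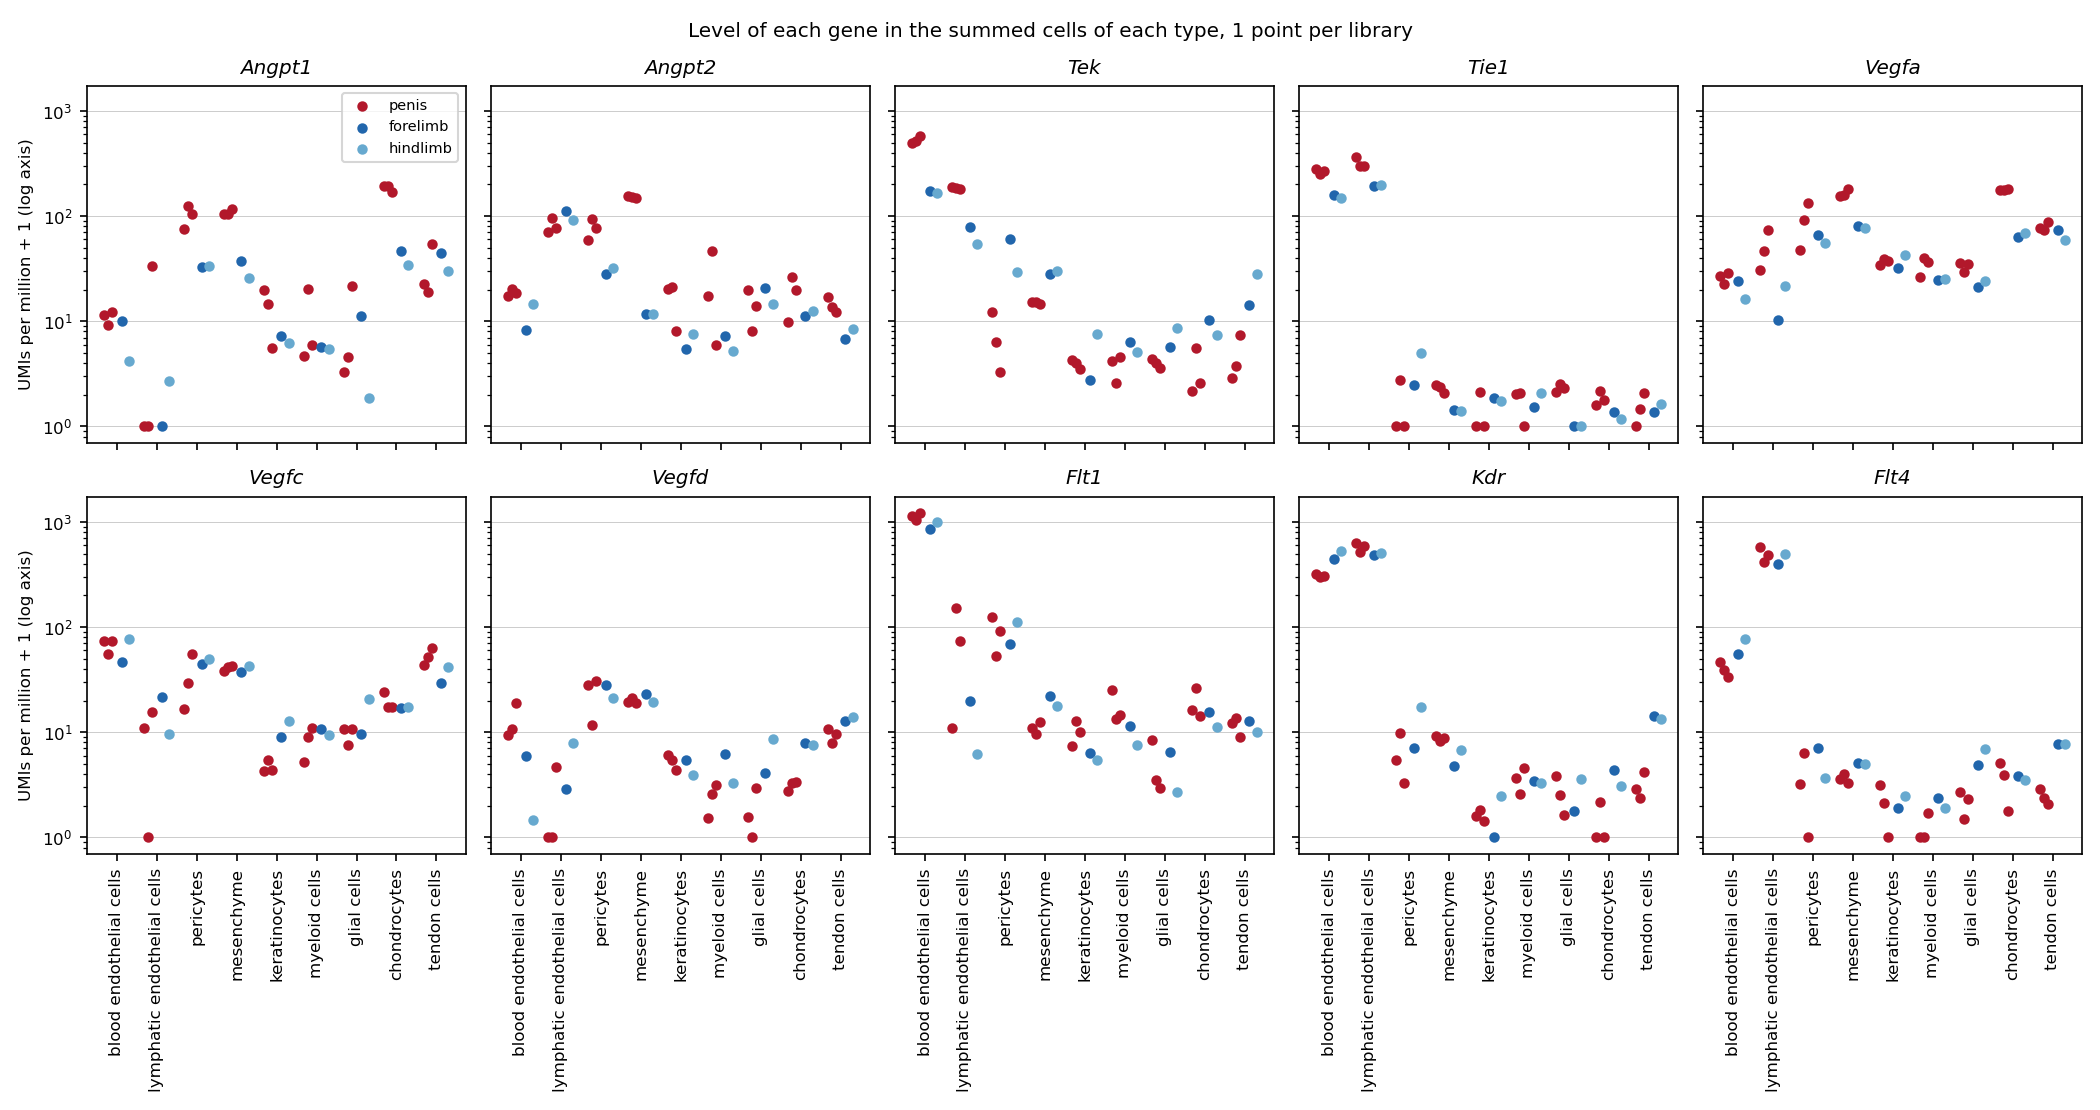
Level of each of the 10 genes in 9 cell types, as CPM plus 1 on a log axis. Each point is the sum over the cells of that type in 1 library (3 penis, 1 forelimb, 1 hindlimb, lymphatic sums of penis libraries 1 and 2 resting on 10 and 16 cells); the 5 receptors stand high in both endothelial types, except *Flt1* in the lymphatic one, and *Angpt1*, *Angpt2* and *Vegfa* stand higher in the penis than the limb points of mesenchyme.

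All 5 receptors were higher in blood endothelial cells than in mesenchyme of the same library, where 25.0% of 17004 genes were called, 9.59% as higher and 15.4% as lower. A call needed an adjusted p under 0.01 and a log2 difference beyond 1 (edgeR quasi-likelihood test with library as a term, p adjusted by Benjamini-Hochberg over every gene in the fit). The log2 difference was 8.02 ± 0.21 (approximate SE taken from the test statistic, n = 5 libraries) for *Tie1*, with an edgeR adjusted p of 8.28e-07. It was 6.40 ± 0.31 for *Flt1* (adjusted p = 7.83e-06), 5.92 ± 0.32 for *Kdr* (1.27e-05), 4.29 ± 0.59 for *Tek* (0.000835) and 3.99 ± 0.13 for *Flt4* (1.68e-06). The median log2 difference was 2.37 over the 10 genes and -0.06 over all genes tested.

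Keratinocytes, an epithelial type, give 1 measure of the level reached by RNA from other cells. There *Tie1* measured 0 to 1.11 CPM, *Kdr* 0 to 1.48, *Flt4* 0 to 2.11, *Tek* 1.76 to 6.64 and *Flt1* 4.43 to 11.6 CPM over the 5 libraries. *Tek* and *Kdr* were lower in keratinocytes than in mesenchyme, with log2 differences of -2.20 ± 0.24 (edgeR adjusted p = 0.000192) and -3.16 ± 0.40 (adjusted p = 0.000409), among 7 of the 10 genes called lower and 0 higher where 23.8% of 17101 genes were called (8.78% higher, 15.0% lower). With gates of 1 marker fewer the *Kdr* difference was -1.75. *Flt1*, *Tie1* and *Flt4* were not called between the same types. The cells gated by red blood markers read higher for some genes, with *Tek* at 3.83 to 16.8 CPM, *Flt1* at 2.15 to 36.6 CPM and, in penis, *Angpt2* at 80.9 to 135 CPM. Those sums also held mesenchyme markers at 2985 to 3892 CPM. They did not enter the tests as a red blood cell type, and the part of RNA from other cells in them was not tested.

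The receptor gene *Tek* and its relative *Tie1* did not keep the same ratio outside the vessel lining. In blood endothelial cells 1.79 to 2.17 *Tek* UMIs were counted per *Tie1* UMI in penis and 1.08 and 1.13 in limb. In mesenchyme the ratio was 9.53 to 12.4 in penis, and 60.1 and 74.8 in forelimb and hindlimb, where 1923 and 2168 *Tek* UMIs faced 32 and 29 of *Tie1*. Limb skeletal muscle cells also held *Tek* at 17.0 and 22.3 CPM with *Tie1* at 0.531 and 0.144 CPM.

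Of the 3 VEGF receptors, *Flt4* was higher and *Flt1* lower in lymphatic than in blood endothelial cells, and *Kdr* was not called. *Flt4* measured 399, 491 and 489 CPM in lymphatic cells of the forelimb, the hindlimb and penis library 3, the 3 libraries with at least 20 such cells. *Flt1* measured 18.7, 5.14 and 72.4 CPM in the same sums. *Kdr* measured 481, 507 and 594 CPM there and *Tie1* 192, 199 and 297 CPM. *Flt4* was thus high and *Flt1* low in all 3, while *Kdr* stood at 445, 532 and 303 CPM and *Tie1* at 159, 147 and 268 CPM in the blood endothelial cells of those libraries.

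In the paired comparison of the 3 libraries, 2 of 9 tested genes were higher and 3 lower in lymphatic cells, where 6.25% of 10407 genes were called (2.95% higher, 3.30% lower). *Flt4* was higher by 3.16 ± 0.23 on the log2 scale (n = 3, edgeR adjusted p = 1.02e-05) and *Flt1* lower, with a log2 difference of -5.32 ± 0.40 (adjusted p = 1.32e-05). The *Flt1* difference was -1.07 with gates of 1 marker fewer and -3.41 with every deposited barcode. *Tek* was lower at -1.46 ± 0.18 (adjusted p = 0.000451), at 53.1 to 181 CPM against 166 to 582 CPM. *Tie1* (0.32, interval -0.03 to 0.66) and *Kdr* (0.36, interval -0.07 to 0.79) were not called. The median log2 difference was 0.32 over the 9 genes and -0.02 over all genes.

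Of the 5 ligands, *Angpt2* was higher and *Vegfc* lower in lymphatic cells. *Angpt1* (0.10 ± 0.79) and *Vegfa* (0.41 ± 0.43) were not called, and *Vegfd* was not tested. *Angpt2* measured 112, 90.7 and 76.0 CPM in lymphatic cells of the forelimb, hindlimb and penis library 3, and 7.17, 13.6 and 17.6 CPM in their blood endothelial cells. The log2 difference was 2.93 ± 0.33 (edgeR adjusted p = 0.000222). *Vegfc* was lower in lymphatic cells at -2.08 ± 0.36 (adjusted p = 0.00337), with 8.56 to 20.5 CPM against 45.3 to 76.5 CPM in those libraries. The *Tek* and *Vegfc* calls were lost when library was not a term (adjusted p = 0.239 and 0.0225), and these 2 with *Angpt2* when each gate needed 1 marker fewer. The *Vegfc* call was also lost without the hindlimb (-1.58, adjusted p = 0.0502).

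Mural cells carried *Flt1*. In pericytes *Flt1* measured 123, 51.6 and 90.3 CPM in penis and 67.5 and 111 CPM in limb, against 8.54 to 21.3 CPM in mesenchyme. It was higher by 2.68 ± 0.23 on the log2 scale (n = 5, edgeR adjusted p = 9.71e-07), the only 1 of the 10 genes called where 3.54% of 16514 genes were (2.06% higher, 1.48% lower). Endothelial markers summed to 155 to 229 CPM in pericytes and to 74.8 to 157 CPM in mesenchyme, and their part in the *Flt1* difference was not tested. *Kdr*, at 2.26 to 16.2 CPM, and *Tie1*, at 0 to 4.04 CPM, stayed low in the same pericyte sums. A pericyte count of 51 to 63 per library limits these values.

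Smooth muscle cells held *Flt1* at unlike levels in the tissues, without a test because the hindlimb held 11 of them. *Flt1* measured 618 and 866 CPM in 21 forelimb and 11 hindlimb cells (136 and 137 UMIs) and 147, 139.9 and 111 CPM in 124, 105 and 102 penis cells. *Kdr*, *Tie1* and *Flt4* were at 0 UMIs in both limb sums, where 3 counts would be 13.6 and 19.0 CPM. The limb and penis values did not overlap, and the 95% exact Poisson intervals, which cover counting error only, were 518 to 730 CPM in the forelimb and 727 to 1024 CPM in the hindlimb.

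**Figure D2:**
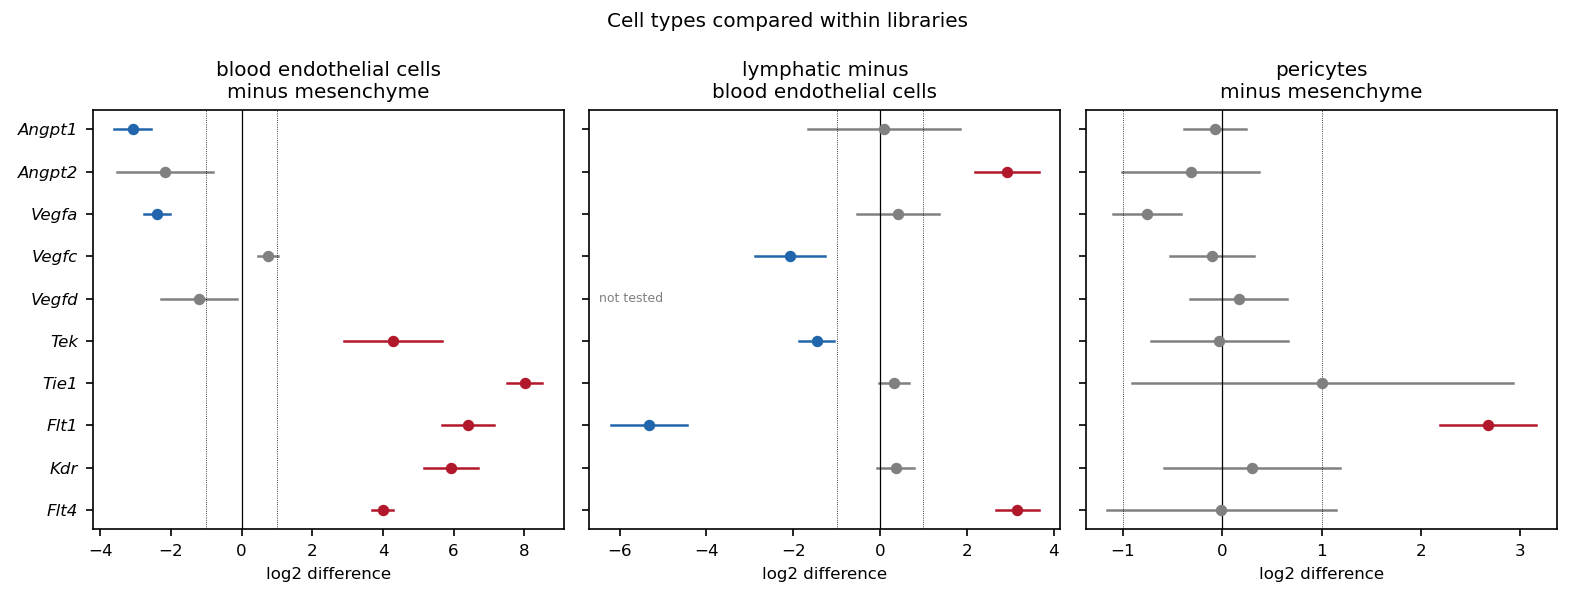
Log2 differences between cell types of the same library for the 10 genes, with 95% intervals (points are edgeR estimates, red called higher, blue called lower, grey not called, dotted lines at 1 and -1; the horizontal scales differ). The 5 receptors are to the right in the first panel, *Flt4* and *Angpt2* are right and *Flt1* left in the second, and *Flt1* alone is coloured in the third.

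*Angpt1* and *Vegfa* lay mainly outside the vessel lining. *Angpt1*, the ligand that activates TEK, measured 104, 104 and 116 CPM in penis mesenchyme and 36.1 and 24.8 CPM in limb mesenchyme, against 3.17 to 11.2 CPM in blood endothelial cells. It was lower in blood endothelial cells than mesenchyme, with a log2 difference of -3.08 ± 0.22 (n = 5, edgeR adjusted p = 4.04e-05). *Vegfa* was lower there too at -2.40 ± 0.16 (adjusted p = 2.52e-05), with 15.4 to 27.9 CPM in blood endothelial cells and 75.7 to 181 CPM in mesenchyme. *Angpt2* measured 7.17 to 19.4 CPM in blood endothelial cells and 10.7 to 155 CPM in mesenchyme, and was not called (-2.17 ± 0.57, adjusted p = 0.0156). *Vegfc*, the ligand of FLT4, measured 73.4, 54.7 and 72.5 CPM in penis and 45.3 and 76.5 CPM in limb blood endothelial cells, against 36.5 to 42.1 CPM in mesenchyme. Its log2 difference of 0.75 ± 0.12 (adjusted p = 0.00166) did not reach 1. *Vegfd* measured 17.9 to 22.0 CPM in mesenchyme and 0.453 to 17.8 CPM in blood endothelial cells, and was not called (-1.22 ± 0.46, adjusted p = 0.0568).

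Cartilage also held *Angpt1* and *Vegfa*. *Angpt1* measured 192, 191 and 169 CPM in penis chondrocytes, above all 3 penis mesenchyme sums, and 45.6 and 33.5 CPM in limb chondrocytes. Penis cells that met no gate held *Angpt1* at similar levels, 185, 223 and 206 CPM. *Vegfa* measured 176 to 181 CPM in penis chondrocytes, within the range of penis mesenchyme, which reached 181 CPM. In limb chondrocytes it measured 62.6 and 68.1 CPM. *Vegfc* was highest on average in blood endothelial cells in both tissues, but its range there overlapped that of the next type, tendon cells in penis and pericytes in limb. *Vegfd* was highest on average in pericytes, at 10.7 to 29.4 CPM on 6 to 18 UMIs per library, and overlapped mesenchyme in both tissues. Between pericytes and mesenchyme it was not called (0.17 ± 0.23, edgeR adjusted p = 0.75). The other orders are descriptions without a test.

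The share of each gene's UMIs held by a cell type depends on the number of its cells as well as on the level in them. Mesenchyme held 88.5 to 91.5% of all *Angpt2* UMIs in the kept cells of a penis library and 49.2 and 53.9% in limb. Blood endothelial cells held 80.6 to 85.8% of *Tie1* UMIs in penis and 45.5 and 51.5% in limb. For *Tek* the order turned around: blood endothelial cells held 69.7 to 75.2% of its UMIs in penis and 9.89 and 11.3% in limb, where mesenchyme held 56.7 and 58.6%. Blood endothelial cells made up 5.94 to 6.33% of kept penis cells and 1.30 and 1.13% of limb cells. Cells meeting more than 1 gate were left out of the comparisons. They held 22.4 and 28.1% of *Tie1* UMIs in limb but 6.08, 7.76 and 6.47% in penis libraries 1 to 3. The effect of leaving them out on the differences between tissues was not tested.

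**Figure D3:**
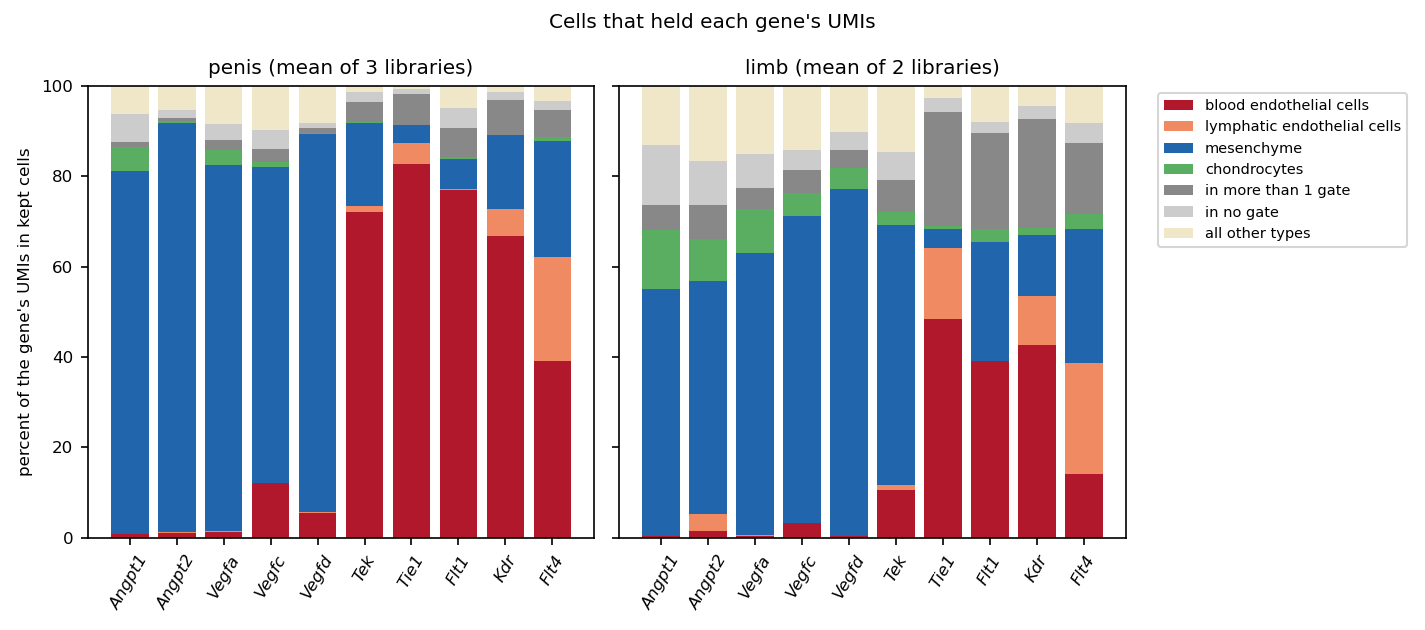
Percent of each gene's UMIs in kept cells that fell in each cell type, as the mean over 3 penis libraries (left) and 2 limb libraries (right), stacked to 100. Blood endothelial cells fill 69.7 to 75.2% of the *Tek* bar in the penis libraries and 9.89 and 11.3% in limb, and mesenchyme is the largest block of each ligand bar.

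Between penis and limb, the receptor gene *Tek* differed most clearly in blood endothelial cells. It measured 495, 515 and 582 CPM against 172 and 166 CPM. *Tek* was higher in penis by 1.63 ± 0.10 on the log2 scale (3 penis against 2 limb libraries, edgeR adjusted p = 3.03e-10), and the 3 penis values lay above both limb values. *Tek* and *Vegfd* were the 2 of 10 genes called, both higher, where 13.0% of 13055 genes were called, 7.11% as higher and 5.86% as lower. In cells thinned to 2000 UMIs, *Tek* was expected in 56.4, 56.4 and 60.8% of penis and 29.0 and 27.0% of limb blood endothelial cells, and in 0.223 to 1.30% of keratinocytes. Without thinning the means were 90.1% and 59.7%, at median depths of 9303 to 9631 UMIs in penis and 5385 and 7005 in limb.

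None of the other 4 receptors reached a log2 difference of 1. *Tie1* differed by 0.77 ± 0.10 (edgeR adjusted p = 4.4e-06), with all penis values above both limb values. *Kdr* (-0.70 ± 0.09, adjusted p = 8.39e-06) and *Flt4* (-0.76 ± 0.16, adjusted p = 0.000776) differed the other way, again without overlap of the groups. *Flt1* differed by 0.26 ± 0.09 (adjusted p = 0.0228). Per library, 3.49 to 3.99 *Flt1* UMIs were counted per *Kdr* UMI in penis and 1.94 and 1.86 in limb. Over the 10 genes the median log2 difference was 0.52, against 0.01 over all genes tested.

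Of the 5 ligands, *Vegfd* was called between tissues in blood endothelial cells. It rested on 39, 44 and 64 UMIs in penis and 11 and 1 in limb, with a log2 difference of 2.08 ± 0.52 (edgeR adjusted p = 0.00373). This call was lost without penis library 3 (adjusted p = 0.0266) and without the hindlimb (0.0866), and its value was 4.59 without the forelimb. DESeq2 also lost it (adjusted p = 0.101), as did the fit with no filter on low counts (0.0284). *Angpt2*, at 16.4 to 19.4 CPM in penis and 7.17 and 13.6 CPM in limb, was not called (0.76 ± 0.25, adjusted p = 0.0202), but was without the hindlimb (1.29, adjusted p = 0.0064). Mesenchyme markers summed to 619.5, 685 and 743 CPM in penis and 748 and 575 CPM in limb blood endothelial cells, and the part of mesenchyme RNA in these ligand values was not tested. *Vegfc* differed by 0.11, with an interval of -0.24 to 0.47.

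In mesenchyme, 3 of the 5 ligands were higher in penis. *Angpt2* measured 155, 151 and 148 CPM in penis and 10.7 and 10.8 CPM in limb. The penis and limb values were each tight and lay far apart. The log2 difference was 3.79 ± 0.07 (3 against 2 libraries, edgeR adjusted p = 2.5e-09), so that *Angpt2* was the gene of the 10 with the largest difference in this type. *Angpt1* was higher in penis by 1.80 ± 0.14 (adjusted p = 5.73e-06). *Vegfa*, at 155, 159 and 181 CPM against 79.6 and 75.7 CPM, was higher by 1.06 ± 0.07 (adjusted p = 2.09e-06). *Vegfc* and *Vegfd* differed by 0.02 (interval -0.14 to 0.19) and -0.14 (interval -0.35 to 0.08). Of the 10 genes, 4 were higher and 1 lower, in a comparison that called 25.1% of 20213 genes, 12.4% as higher and 12.7% as lower. The median log2 difference was 0.35 over the 10 genes and 0.01 over all genes.

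The receptors in mesenchyme were low and pointed in both directions. *Tek*, at 26.9 and 29.2 CPM in limb and 13.6 to 14.3 CPM in penis, was lower in penis with a log2 difference of -1.02 ± 0.07 (edgeR adjusted p = 1.66e-06). That size lies at the limit of 1, and it was -0.98 without penis library 3, -0.97 without the hindlimb and -0.93 with gates of 1 marker fewer. *Tie1* was higher in penis by 1.65 ± 0.23 (adjusted p = 0.000208), on 37 to 68 UMIs against 32 and 29. *Flt1* (-0.96 ± 0.13), *Kdr* (0.68 ± 0.16) and *Flt4* (-0.65 ± 0.14) passed the p limit below a log2 difference of 1. *Flt1* reached -1.04 without penis library 3 and -1.14 without the hindlimb, and *Kdr* 1.02 without the hindlimb. Endothelial markers summed to 74.8 to 80.5 CPM in penis mesenchyme and 157 and 148 CPM in limb mesenchyme. That is the same direction as *Tek*, *Flt1* and *Flt4* and the opposite of *Tie1* and *Kdr*. Over all kept cells, *Tie1* gave 1497, 1405 and 1175 of 51529854 to 68417925 UMIs in penis. In limb it gave 687 and 715 of 142718533 and 148752710 UMIs. *Kdr* gave 2065, 2024 and 1722 UMIs in penis and 2261 and 2840 in limb. By that measure *Tie1* and *Kdr* were both higher in penis, as in mesenchyme. The part of endothelial RNA in the mesenchyme values was not tested.

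**Figure D4:**
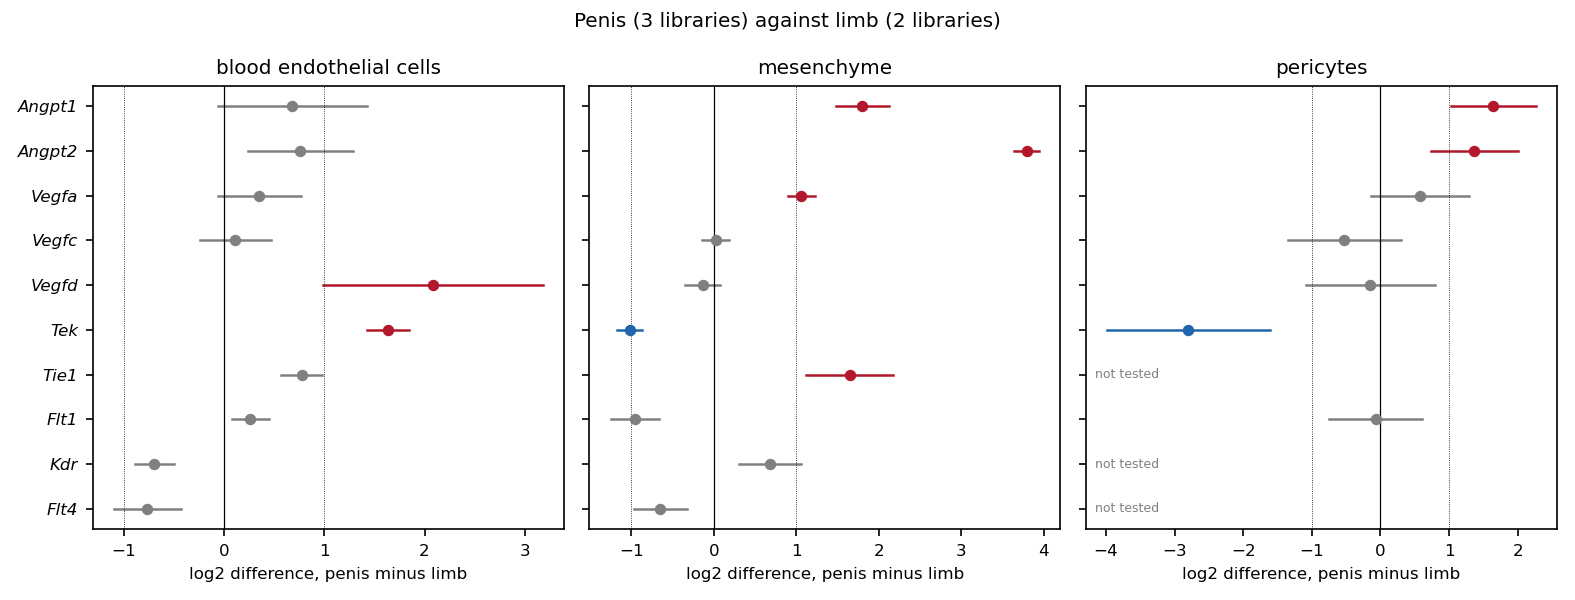
Log2 difference between penis and limb for the 10 genes in 3 cell types, with 95% intervals (points are edgeR estimates, red called higher in penis, blue called lower, grey not called, dotted lines at 1 and -1; the horizontal scales differ). *Tek* is on the right in blood endothelial cells and on the left in mesenchyme and pericytes, and *Angpt1* and *Angpt2* are coloured in mesenchyme and pericytes but not in blood endothelial cells.

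The tissue difference itself differed between endothelium and mesenchyme for 5 of the 10 genes, in a test of the interaction that called 7.43% of 18971 genes (4.23% higher, 3.19% lower). *Tek* had the largest positive value, at 2.69 ± 0.11 on the log2 scale (edgeR adjusted p = 3.58e-12), since it was higher in penis endothelium and lower in penis mesenchyme. *Angpt2* had the largest negative value at -2.99 ± 0.31 (adjusted p = 6.87e-07), and the part of mesenchyme RNA in its endothelial levels was not tested. *Flt1* (1.26 ± 0.12, adjusted p = 2.5e-07) and *Vegfd* (2.26 ± 0.54, adjusted p = 0.00453) were positive, and *Kdr* (-1.34 ± 0.10, adjusted p = 8.31e-09) negative. The *Vegfd* value was not called without penis library 3 (adjusted p = 0.0135) or the hindlimb (0.0544).

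In pericytes, *Angpt1* and *Angpt2* were higher and *Tek* lower in penis, as in mesenchyme. *Angpt1* measured 74.1, 125 and 104 CPM in penis and 31.5 and 32.4 CPM in limb, higher by 1.64 ± 0.29 (edgeR adjusted p = 0.00208). *Angpt2* was higher by 1.37 ± 0.29 (adjusted p = 0.00669), with 58.4 to 92.6 CPM against 27.0 and 31.0. *Tek* was lower at -2.80 ± 0.55 (adjusted p = 0.00418), on 5, 3 and 1 UMIs in penis and 40 and 21 in limb, and -1.16 with gates of 1 marker fewer. These were 3 of 7 tested genes, where 7.55% of 8586 genes were called (4.47% higher, 3.07% lower) and the median log2 difference was -0.07 over the 7 genes and 0.00 over all. Mesenchyme markers summed to 3454 to 4592 CPM in the pericyte sums, against 4332 to 5646 CPM in mesenchyme, and their part was not tested. The gated cells also differed in pericyte markers, which summed to 4744, 3549 and 4191 CPM in penis and 1412 and 1440 CPM in limb. The part of this difference in the 3 calls was not tested. *Angpt1* lost its call without penis library 2, *Angpt2* without any 1 of penis library 2, penis library 3, the forelimb and the hindlimb, and *Tek* without penis library 2, penis library 3 or the forelimb.

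No member was called in keratinocytes (6 tested, 11.5% of 12351 genes called, 5.56% higher and 5.93% lower), myeloid cells (4 tested, 12.4% of 11504, 8.30% higher and 4.15% lower) or glial cells (4 tested, 16.7% of 11291, 9.21% higher and 7.52% lower). *Vegfa* in keratinocytes measured 33.2 to 38.3 CPM in penis and 30.9 and 41.3 CPM in limb, with a log2 difference of 0.04 and an interval of -0.38 to 0.45. *Angpt2* in keratinocytes measured 19.3, 20.2 and 7.07 CPM in penis and 4.41 and 6.64 CPM in limb (1.57 ± 0.51, edgeR adjusted p = 0.0327). In myeloid cells it measured 16.3, 45.5 and 4.97 CPM in penis and 6.20 and 4.26 CPM in limb (2.17 ± 0.60, adjusted p = 0.0172). Both were called without penis library 3 (1.90 and 2.59). *Angpt2* made up 148 to 155 CPM of penis and 10.7 and 10.8 CPM of limb mesenchyme, and the part of RNA from those cells was not tested.

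Within mesenchyme, the ligands were carried by part of the cells. At least 3 UMIs of *Angpt2* were counted in 21.2, 20.7 and 19.4% of penis mesenchyme cells and in 0.193 and 0.205% of limb mesenchyme cells. For *Vegfa* the shares were 24.2, 23.3 and 25.4% against 3.70 and 3.67%, and for *Angpt1* 12.4, 11.5 and 12.5% against 2.27 and 1.95%. Penis cells were deeper, so the shares were also compared at 2000 UMIs per cell. There *Angpt2* was expected in 18.3 ± 0.20% (SD, n = 3) of penis and 2.16 ± 0.05% (SD, n = 2) of limb mesenchyme cells, and in 0.889 to 2.63% of keratinocytes. *Angpt1* was expected in 13.0 ± 0.74% and 5.13 ± 0.97%. In penis the top 1% of mesenchyme cells held 20.3 to 23.0% of *Angpt1* UMIs (3922 to 4709 UMIs per library) and 6.64 to 7.93% of *Vegfa* UMIs (6114 to 7052), a share that also rises as a gene gets sparser.

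**Figure D5:**
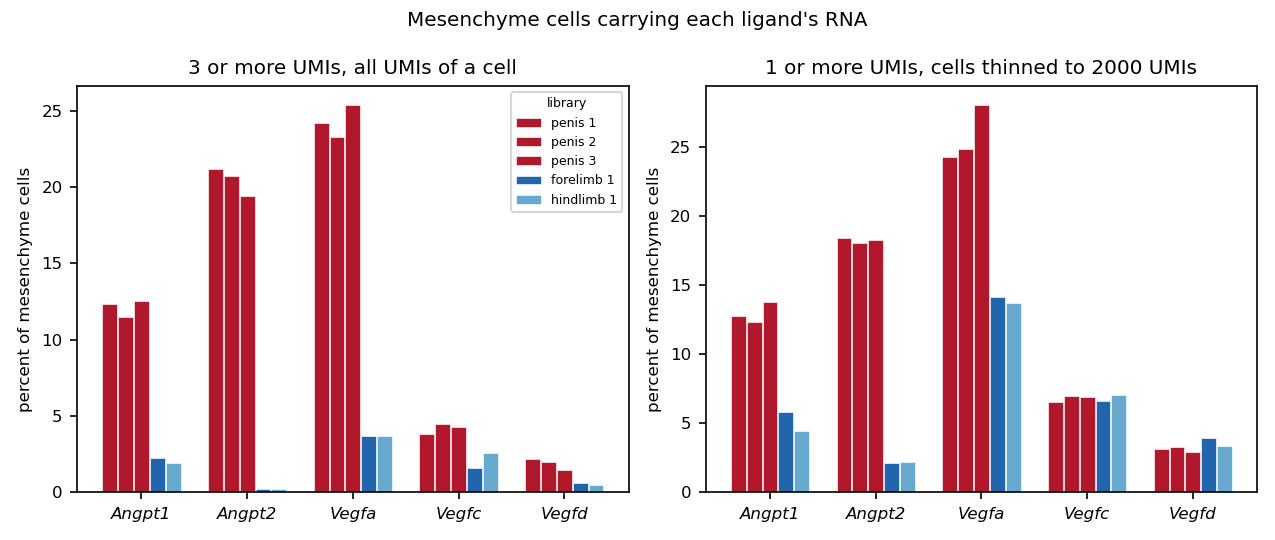
Percent of mesenchyme cells with at least 3 UMIs of each ligand (left) and with at least 1 UMI after thinning to 2000 UMIs per cell (right), 1 bar per library. The bars for *Angpt1*, *Angpt2* and *Vegfa* are taller in all 3 penis libraries than in the forelimb and hindlimb on both sides, while on the right those of *Vegfc* and *Vegfd* are close.

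The *Angpt2* cells of the penis overlapped those of some ligands more than others. Among penis mesenchyme cells with at least 3 *Angpt2* UMIs, 47.4, 44.6 and 50.0% also had at least 3 of *Vegfa*, against 18.0, 17.8 and 19.4% of other mesenchyme cells. For *Angpt1* the shares were 18.0, 15.9 and 18.9% against 10.8, 10.3 and 11.0%. For *Vegfc* they ran the other way, at 1.13, 1.01 and 1.74% against 4.57, 5.36 and 4.87%. *Ccl19*, a chemokine gene named here after its values were seen, was detected in 78.5, 77.4 and 73.5% of the *Angpt2* cells and in 19.0, 17.6 and 16.8% of the others. The *Angpt2* cells were somewhat deeper, with median UMIs of 10101 to 11753 against 8910 to 10058, and no test was made across cells.

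Other genes of the pathway were read from lists of neighbours in the 2 signalling systems. Their calls, several of them close to the log2 limit of 1, were not repeated under other gates, fits or sets of libraries. Of 5 further ligands and co-receptors, 2 were higher in penis mesenchyme, where 12.4% of all genes were. *Angpt4*, another ligand of TEK, measured 29.6, 31.2 and 31.3 CPM in penis mesenchyme and 0.726 and 0.363 CPM in limb, a log2 difference of 5.79 ± 0.18 (edgeR adjusted p = 2.7e-08). *Nrp1*, a co-receptor for VEGF-A, was higher in penis in both mesenchyme (1.03 ± 0.08) and blood endothelial cells (1.10 ± 0.09), where it measured 804 to 928 CPM against 399 and 391 CPM. *Nrp2*, the co-receptor used with FLT4, measured 779 to 1058 CPM in lymphatic cells and was higher there than in blood endothelial cells by 2.09 ± 0.15 (adjusted p = 9.3e-06), while *Nrp1* was lower (-4.29 ± 0.37, adjusted p = 3.4e-05).

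The list of sprouting front genes, markers of the cells that lead a growing vessel, held 8 genes. In blood endothelial cells 2 of them were lower in penis than limb, *Kcne3* (-2.28 ± 0.23) and the netrin receptor gene *Unc5b* (-1.78 ± 0.17), 0 were higher and 6 were not called, where 5.86% of all genes were lower. All 8 had a negative log2 difference, where the median over all genes tested was 0.01 and the share of negative genes is not given. The list was chosen with earlier results of these data known, so the shared direction is a description only. The log2 differences of *Apln*, the ligand gene of the apelin receptor, and *Esm1*, a secreted VEGF response gene, were -0.55 ± 0.14 and -0.80 ± 0.19. Against mesenchyme, 7 of the 8 were higher in blood endothelial cells (9.59% of all genes), and 5 of the 8 were lower in lymphatic than in blood endothelial cells (3.30% of all genes).

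Of 4 listed genes linked to TIE signalling, *Ptprb*, the endothelial phosphatase that acts on TEK, was higher in blood endothelial cells than mesenchyme by 8.05 ± 0.14 (edgeR adjusted p = 2.4e-07) and not called between tissues (0.33 ± 0.10). In penis blood endothelial cells 2 of the 4 were higher, *Svep1* (1.59 ± 0.41) and the flow-responsive factor gene *Klf2* (1.10 ± 0.11), and 0 were lower, where 7.11% of all genes were higher. *Svep1* rested there on 36, 62 and 43 UMIs in penis (7.77 to 13.7 CPM) and 12 and 4 in limb, against 112 to 126 CPM in penis mesenchyme, and the part of mesenchyme RNA was not tested. In penis mesenchyme 1 of the 4 was higher, *Svep1* (1.08 ± 0.09), and 1 was lower, *Klf2* (-1.39 ± 0.07), where 12.4% of all genes were higher and 12.7% lower. Among 3 genes linked to the processing of VEGF-C, *Ccbe1*, which brings VEGF-C and its protease together, measured 11.3 to 13.7 CPM in penis and 34.7 and 40.8 CPM in limb mesenchyme, a log2 difference of -1.66 ± 0.09 (adjusted p = 5.5e-07). In keratinocytes it went the other way, at 63.6, 82.3 and 71.9 CPM in penis and 4.41 and 5.16 CPM in limb (3.96 ± 0.29, adjusted p = 6.57e-08). *Ccbe1* was the 1 gene of the 3 called in mesenchyme, where *Adamts3*, the protease gene, differed by -0.72 ± 0.07 and *Adamts14* by 0.10 ± 0.10. In penis blood endothelial cells 2 of the 3 were lower, *Ccbe1* (-2.87 ± 0.57) and *Adamts14* (-1.53 ± 0.44), where 5.86% of all genes were lower. The part of mesenchyme RNA in these endothelial values, with *Ccbe1* also lower in penis mesenchyme, was not tested.

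Of 10 genes that respond to low oxygen, 3 were lower and 0 higher in penis mesenchyme, where 12.7% of all genes were lower and 12.4% higher. They were the glycolysis genes *Ldha* (-1.16 ± 0.06) and *Pgk1* (-1.10 ± 0.06) and the stress gene *Ndrg1* (-1.09 ± 0.06). The other 7 were not called and went in both directions. *Bnip3* measured 24.5 to 27.7 CPM in penis and 14.3 and 18.9 CPM in limb mesenchyme. *Slc2a1* measured 20.8 to 22.6 CPM in penis and 36.8 and 37.6 CPM in limb mesenchyme. In blood endothelial cells *Egln3* was higher in penis (1.82 ± 0.15) and *Ankrd37* lower (-1.69 ± 0.19), where 7.11% of all genes were higher and 5.86% lower. *Vegfa*, which low oxygen also induces, was higher in penis mesenchyme and not called in blood endothelial cells (0.35 ± 0.20).

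The genes whose levels followed each ligand most closely over 58 sums of cells by type and library were named by Pearson's r of log2(CPM + 1). The points share libraries and cell types and include the sums gated by red blood markers, so r is a description. *Vegfa* was followed by *Prrx2* (r = 0.92), *Nfix* (0.91) and *Prr16* (0.91), and *Angpt1* by *Srpx* (0.85), *Scara3* (0.84) and *Calml4* (0.84). *Angpt2* was followed by *Hey1* (0.80), which measured 36.9 to 37.6 CPM in penis mesenchyme and 6.48 and 5.53 CPM in limb, then by *Gm17167* and *Pdlim3* (both 0.77). *Vegfc* was followed by *Cd81* (0.77), *Cd34* (0.77) and *Jcad* (0.75), and *Vegfd* by *Medag*, *Anpep* and *C1qtnf2* (all 0.74).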

How the data were processed

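The authors deposited filtered matrices of raw UMI counts for 32285 genes, made with Cell Ranger 7.0.0 on mm10 per the labels from 10x 3' libraries. Whether intronic reads were counted is not given in the sources used here. Cells were kept by the limits in the study methods. Its lower and upper limits are worded there as reads per cell and were applied here to detected genes, which is a reading of this work: 500 to 6000 genes and at most 5% in penis, 100 to 9000 (forelimb) or 9500 (hindlimb) genes and at most 10% in limb, complexity at least 0.8. Cells were typed by the number of listed markers with a UMI, for example 5 of 8 for blood endothelial cells. Lymphatic cells needed 3 of 5 lymphatic markers and at least 3 of the 8 endothelial markers. That endothelial limit is lower than the one for blood endothelial cells. Gate limits were set after marker histograms and first levels were seen. No doublet caller was run, and cells in more than 1 gate were set aside.

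Counts were summed per library and type, where every library entering a test had at least 20 cells. edgeR 4.0.16 (TMM scaling, its filter on low counts, quasi-likelihood test, R 4.3.3) was fitted over all genes, with library as a term between cell types, and p-values were adjusted by the Benjamini-Hochberg method. A gene was called at an adjusted p under 0.01 and a log2 difference beyond 1. The SE of a log2 difference was taken as its size divided by the square root of the F statistic of the test. Its 95% interval rests on that SE, so both are approximate, in the text and in the figures. Alternatives were DESeq2 1.42.0, no filter, gates of 1 marker more or fewer, every deposited barcode, each library left out, limbs as separate groups, no library term and other thinning depths. Thinned shares are the expected share of cells with a UMI when each cell is reduced to 2000 UMIs, shallower cells left out. Intervals of levels are exact Poisson at 95% and cover counting error only. The genes named were the 10, those of 5 pathway lists and the 3 genes most like each ligand, among genes of at least 10 CPM on average. The members and lists were chosen with earlier results of these data known. Sums and figures used Python 3.11.15, pandas 2.3.3, scipy 1.17.1 and matplotlib 3.10.9.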

Additional observations from a re-analysis of the deposited data

Results flagged for a closer look

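For 5 genes the difference between penis and limb was not the same in blood endothelial cells and mesenchyme by a test of the difference of differences (edgeR quasi-likelihood interaction over 5 libraries). The value for *Tek* was 2.69 on the log2 scale, as it was higher in all 3 penis libraries in endothelium and lower in all 3 in mesenchyme. *Angpt2* had a value of -2.99, with a large tissue difference in mesenchyme (3.79) and a small one in endothelium (0.76), where mesenchyme markers summed to 575 to 748 CPM and their part was not tested. *Kdr* had -1.34 and *Flt1* 1.26, with neither gene called between tissues in either cell type alone. *Vegfd* had 2.26, which was not called without penis library 3 (1.88, adjusted p = 0.0135) or without the hindlimb (1.56, adjusted p = 0.0544) and was 4.76 without the forelimb.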

How the results depend on the processing

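Of 953 values of single genes under alternative settings, 849 kept their direction and side of the limits, 28 lost a call and 21 gained one. A further 53 turned sign without being called in either setting (values from -0.77 to 0.66), and 2 turned sign and were called. Both of these concerned pericytes against mesenchyme: *Vegfd* was -1.67 with gates of 1 marker more and *Tek* 1.17 with 1 marker fewer, each called there only, and the cause was not tested. Of 236 counts of called genes, 204 stayed within 1.5 times the reported one.

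Counts that moved further were the following. In pericytes, penis against limb gave 384 genes higher and 264 lower, and DESeq2 gave 150 lower, no filter 644 and 499, 1 marker more 252 and 147, and 1 marker fewer 777 and 574. With a library left out the counts ran from 253 to 302 higher and from 131 (without penis library 3) to 231 lower, with 164 lower without penis library 2. In keratinocytes (687 and 732) they ran from 404 to 646 and from 481 to 728, lowest without the hindlimb. In myeloid cells (955 and 477) they ran from 625 (without the hindlimb) to 1013 and from 309 (without the forelimb) to 539. Lymphatic against blood endothelial cells (307 and 343) gave 690 lower with no filter and 153 and 96 with 1 marker fewer. With a library left out it gave 116 to 499 higher and 95 to 665 lower, lowest without the forelimb and highest without penis library 3, and 176 and 150 without the hindlimb. Pericytes against mesenchyme (341 and 244) gave 587 and 735 with 1 marker more and 198 and 150 with 1 marker fewer. With a library left out it gave 264 to 423 higher and 153 (without penis library 2) to 322 lower. The cause of these shifts was not tested.

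No paired analysis was possible between penis and limb because their libraries share only the replicate number 1. Cell types of the same library were paired by a library term, and without this replicate block lymphatic against blood endothelial cells gave 69 and 54 genes and pericytes against mesenchyme 175 and 32. *Tek* (-1.59) and *Vegfc* (-2.12) in lymphatic cells and *Angpt2* in keratinocytes against mesenchyme (-2.70, adjusted p = 0.0219) lost their calls there.

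Single calls also changed elsewhere. *Angpt2* in blood endothelial cells against mesenchyme, not called (-2.17), was called by DESeq2 (-1.93), with 1 marker fewer (-2.35) and without the hindlimb (-2.71). *Flt1* in pericytes between tissues was called with 1 marker fewer (-1.29) and *Tek* there was -1.16, while *Angpt1* (1.95) and *Angpt2* (1.00) were not called there with 1 marker more, *Angpt2* not by DESeq2 (1.37) and *Tek* not with every barcode (-2.11). In keratinocytes *Angpt1*, *Angpt2* and *Vegfc*, in myeloid cells *Angpt2* and *Vegfa*, and in glial cells *Vegfa* gained a call under at least 1 alternative.

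Shares of cells with a UMI depend on depth. For *Tek* in blood endothelial cells the mean share was 38.1, 77.3 and 90.1% in penis and 15.8, 42.9 and 59.7% in limb at 1000 UMIs, 4000 UMIs and without thinning. In mesenchyme *Angpt2* gave 11.3, 26.4 and 35.4% in penis and 1.13, 3.84 and 6.20% in limb. *Angpt1* gave 8.15, 19.1 and 28.2% in penis and 2.88, 8.05 and 11.7% in limb. The penis mean lay above the limb mean at each of these depths.

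Limits remain. The limb group is 1 forelimb and 1 hindlimb library, pericytes number 51 to 63 per library and lymphatic cells 10 to 42, and penis and limb differ in age as well as tissue, which cannot be told apart.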
